A study of Saccharomyces cerevisiae BY4741 with 66 samples.

Results

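The 10 genes described here make, activate, lengthen, desaturate or carry long-chain fatty acids as coenzyme A (CoA) thioesters in the budding yeast Saccharomyces cerevisiae. They were chosen by gene identifier, not by a measured value, and are 10 of the 6605 features that each deposited table lists. They are ACC1 (YNR016C), which encodes acetyl-CoA carboxylase, the elongases ELO1 (YJL196C), ELO2 (YCR034W) and ELO3 (YLR372W), the desaturase OLE1 (YGL055W) and its activator MGA2 (YIR033W). The others are the acyl-CoA synthetases FAA1 (YOR317W), FAA3 (YIL009W) and FAA4 (YMR246W) and the acyl-CoA binding protein ACB1 (YGR037C). The outcome in brief was that OLE1 rose about 3-fold in translation in both strains that lacked part of the fatty acid synthase and grew with added fatty acids, and that none of the other 9 genes passed the same test.

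Fatty acid synthase builds saturated acyl-CoA from acetyl-CoA and from the malonyl-CoA that acetyl-CoA carboxylase supplies. Elongases of the endoplasmic reticulum lengthen these chains with more malonyl-CoA, and the delta-9 desaturase places a double bond in them. Fatty acids from the medium enter the same pool once acyl-CoA synthetases have activated them, and OLE1 transcription is known in yeast to be repressed by unsaturated fatty acids through the membrane-bound activators Mga2 and Spt23.

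The study asked which nascent chains the subunits of protein complexes bind during translation, by selective ribosome profiling. Ribosome-protected fragments (footprints) were sequenced from all ribosomes (the total translatome, "total") and from ribosomes recovered with a GFP-tagged subunit through an antibody against GFP (the purified fraction, "IP"). Per-gene tables of 50 of the 66 libraries were used, 25 totals and 25 IPs of 15 strains, with 1 or 2 libraries a strain and fraction. BY4741 is the labelled parent of every strain, and cultures were kept at 30 °C.

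Rich medium (YPD) was used for 10 strains, which gave 17 totals and 17 IPs. FAS1-GFP and FAS2-GFP tag the beta and alpha subunits of fatty acid synthase, GUS1-GFP, MES1-GFP and ARC1-GFP the synthetase complex, PFK1-GFP and PFK2-GFP phosphofructokinase, and SUI2-GFP, SUI3-GFP and GCD11-GFP the initiation factor eIF2. TRP2-GFP and TRP3-GFP grew in SD-trp (3 totals) and CPA1-GFP in SD-arg (1 total). FAS1dMPT-GFP carried tagged FAS1 without a segment of its MPT domain (malonyl/palmitoyl transferase), and the strain FAS1-GFP FAS2dMPT carried tagged full-length FAS1 with a FAS2 that lacked its base pairs 1 to 282, labelled as an MPT domain segment. Both deletion strains (2 totals each) had fatty acids added to their medium, and which ones is not given in the labels. Deletion and added fatty acids therefore cannot be told apart, nor can strain and medium in SD-trp and SD-arg.

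Values are RPM of the deposited tables (the reads of a feature divided by those of the library and put on a common scale), set here over nuclear genes alone. The depth, in units of 1e6 reads, was 1.74 to 55.9 in the totals and 0.544 to 31.7 in the IPs, as read from the most frequent non-zero value of each table. In FAS1-GFP FAS2dMPT, FAS2 stood at 138 and 426 RPM in the totals against 2299 to 4516 RPM in YPD, and FAS1 at 5711 and 4328 RPM. In FAS1dMPT-GFP, FAS2 stood at 1890 and 1589 RPM and FAS1 at 3708 and 4074 RPM.

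Several libraries stood apart. The labels give no mating type, yet 6 of 25 totals had more footprints on 3 alpha-specific than on 6 a-specific marker genes (FAS1-GFP total 1, both FAS2-GFP totals, both TRP2-GFP totals and FAS1-GFP FAS2dMPT total 1). FAS1-GFP total 2 had the a pattern (943 RPM over the a-specific genes, 3.82 RPM over the alpha-specific) while its labelled partner IP 2 had mainly the alpha pattern (100 and 721 RPM). The replicates of the FAS2 deletion strain had opposite patterns, and in the pair labelled 2 features of 4000 nt or more had a median IP-over-total log2 ratio of -0.42, against 0.98 in pair 1. All deletion libraries came in tables that list start and end in ascending order, as did 6 of the 17 YPD totals, and the other 11 YPD totals list them by strand.

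In YPD all 10 genes had more footprints per unit length than the median feature, and ACB1 stood highest on this scale. Its median over the 17 totals was 1037 RPM per kb, higher than 97.1% of features. ACB1 encodes a small cytosolic protein of 88 codons that carries long-chain acyl-CoA, and lies on chromosome VII at 559731 to 559994 on the minus strand. ACC1 followed with 290 RPM per kb and FAA4 with 284 RPM per kb. ACC1 makes malonyl-CoA in a single step that limits fatty acid synthesis, and its reading frame of 6702 nt on chromosome XIV (654673 to 661374, minus strand) is the longest of the 10.

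A middle group held ELO3 at a median of 150 RPM per kb, OLE1 at 148, ELO2 at 132, FAA1 at 122 and ELO1 at 81.3 RPM per kb. FAA3 at 39.0 and MGA2 at 29.5 RPM per kb were the lowest, and MGA2, the gene of a transcription activator, still stood above 63.8% of features. Every gene's range overlapped that of the next gene in this order, but ACB1 overlapped ACC1, and ELO1 overlapped FAA3, through GUS1-GFP total 1 alone. In the other 16 YPD totals ACB1 stood at 837 RPM per kb or more and ACC1 at 415 or less, and ELO1 at 56.5 RPM per kb or more and FAA3 at 48.5 or less. The ranges of the other neighbours overlapped in these 16 totals as well. For FAA4 and ELO3 only the ends overlapped. Over all YPD totals the lowest FAA4 value was 198 RPM per kb and the highest ELO3 value 231, with medians of 284 and 150. Whether neighbours differed within each library was not tested. The coordinates of all 10 genes in the deposited tables equal those of the RefSeq assembly R64.

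**Figure D1:**
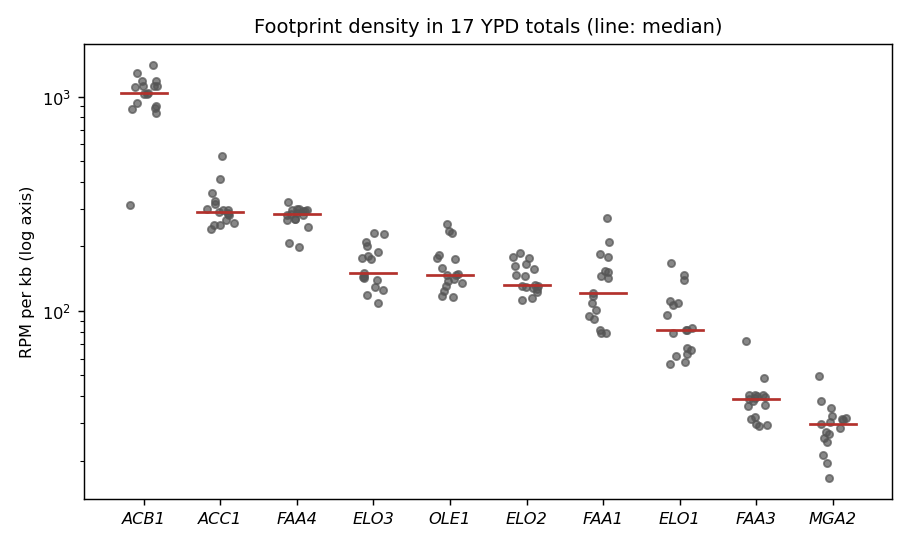
Footprint density (RPM per kb, log axis) of the 10 genes in the 17 YPD totals, ordered by median (line), 1 point a library. ACB1 has the highest median at 1037 RPM per kb and MGA2 the lowest at 29.5 RPM per kb, and the single low ACB1 point is GUS1-GFP total 1.

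The 3 long-chain acyl-CoA synthetases varied unequally within YPD. FAA1, with FAA4 a main enzyme for activating imported fatty acids, ranged from 165 to 573 RPM with a coefficient of variation of 38.8% (n = 17). FAA4 ranged from 414 to 675 RPM, with a coefficient of variation of 11.8%, the smallest of the 10 genes. Over all 25 totals their log2 levels ran in opposite directions (Pearson r = -0.81), the lowest value among the 45 pairs of these genes. The highest was that of ELO2 and ELO3 (r = 0.78), and these correlations are descriptions over libraries that share strains and media.

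The spread of FAA1 lay partly between libraries of 1 strain. FAA1 stood at 318 and 573 RPM in the 2 FAS1-GFP totals and at 166 and 387 RPM in the 2 PFK2-GFP totals, but at 165 and 171 RPM in ARC1-GFP and 199 and 192 RPM in MES1-GFP. The 2 FAS1-GFP totals are those with opposite mating-type patterns. ELO1, which lengthens medium-chain fatty acids, varied almost as much as FAA1, from 52.8 to 156 RPM (coefficient of variation 36.1%). Library GUS1-GFP total 1 had the highest ACC1 (3531 RPM), FAA3 (151 RPM), FAA4 (675 RPM) and MGA2 (166 RPM) of the YPD totals. It also had the lowest ACB1 (82.8 RPM), and 75.7% of its reads fell on the listed features, mitochondrial ones included.

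OLE1 rose in both deletion strains with added fatty acids. Its product is the delta-9 fatty acid desaturase, and the gene lies on chromosome VII at 398628 to 400160 on the plus strand. OLE1 stood at 178 to 390 RPM in the 17 YPD totals, with a median of 227 RPM. The 2 FAS1dMPT-GFP totals gave 974 and 980 RPM and the 2 FAS1-GFP FAS2dMPT totals 799 and 917 RPM. All 4 lay above every YPD total, and also above the SD-trp (181, 191 and 296 RPM) and SD-arg (374 RPM) totals.

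On the scaled log2 scale (trimmed mean of log ratios, pseudocount 1) OLE1 was higher than in YPD by 1.70 ± 0.21 (SE) in FAS1dMPT-GFP, a 3.24-fold difference (limma, adjusted p = 1.21e-05). The strain FAS1-GFP FAS2dMPT showed a difference of 1.52 ± 0.21, or 2.86-fold (limma, adjusted p = 2.24e-05). Both comparisons share the same 17 YPD totals of 10 strains, and libraries of 1 strain were taken as independent in this fit. A gene was called where the adjusted p over all 5010 features tested was below 0.05 and the log2 difference at least 1 in size. Of the 10 genes 1 was called higher and 0 lower in each comparison, beside 6.21% of all features called in FAS1dMPT-GFP (5.07% higher, 1.14% lower) and 8.12% in FAS1-GFP FAS2dMPT (6.15% higher, 1.98% lower). The median log2 difference of the 10 genes was 0.14 and 0.31, and of all features 0.00 in both. Without scaling between libraries 614 features were called higher and 25 lower in FAS1dMPT-GFP, and 427 and 51 in FAS1-GFP FAS2dMPT.

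The OLE1 difference was as large within 1 table layout. Among the 6 YPD totals with the same table layout as the deletion libraries, OLE1 ranged from 178 to 278 RPM, and with layout as a covariate its difference was 1.82 and 1.64. With the ratio of mating-type markers as a covariate it was 1.70 and 1.51, and without the FAS2 deletion pair labelled 2 it was 1.57 in that strain (limma, adjusted p = 0.00192), where the 1 total left is assumed to vary like the other groups. With no scaling the median feature itself was 0.42 and 0.24 higher than in YPD, so all differences are given relative to the median. OLE1 was also high in the IPs of these cultures, at 891 and 670 RPM in FAS1dMPT-GFP and 617 and 1534 RPM in FAS1-GFP FAS2dMPT, against 145 to 370 RPM in the 17 YPD IPs.

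**Figure D2:**
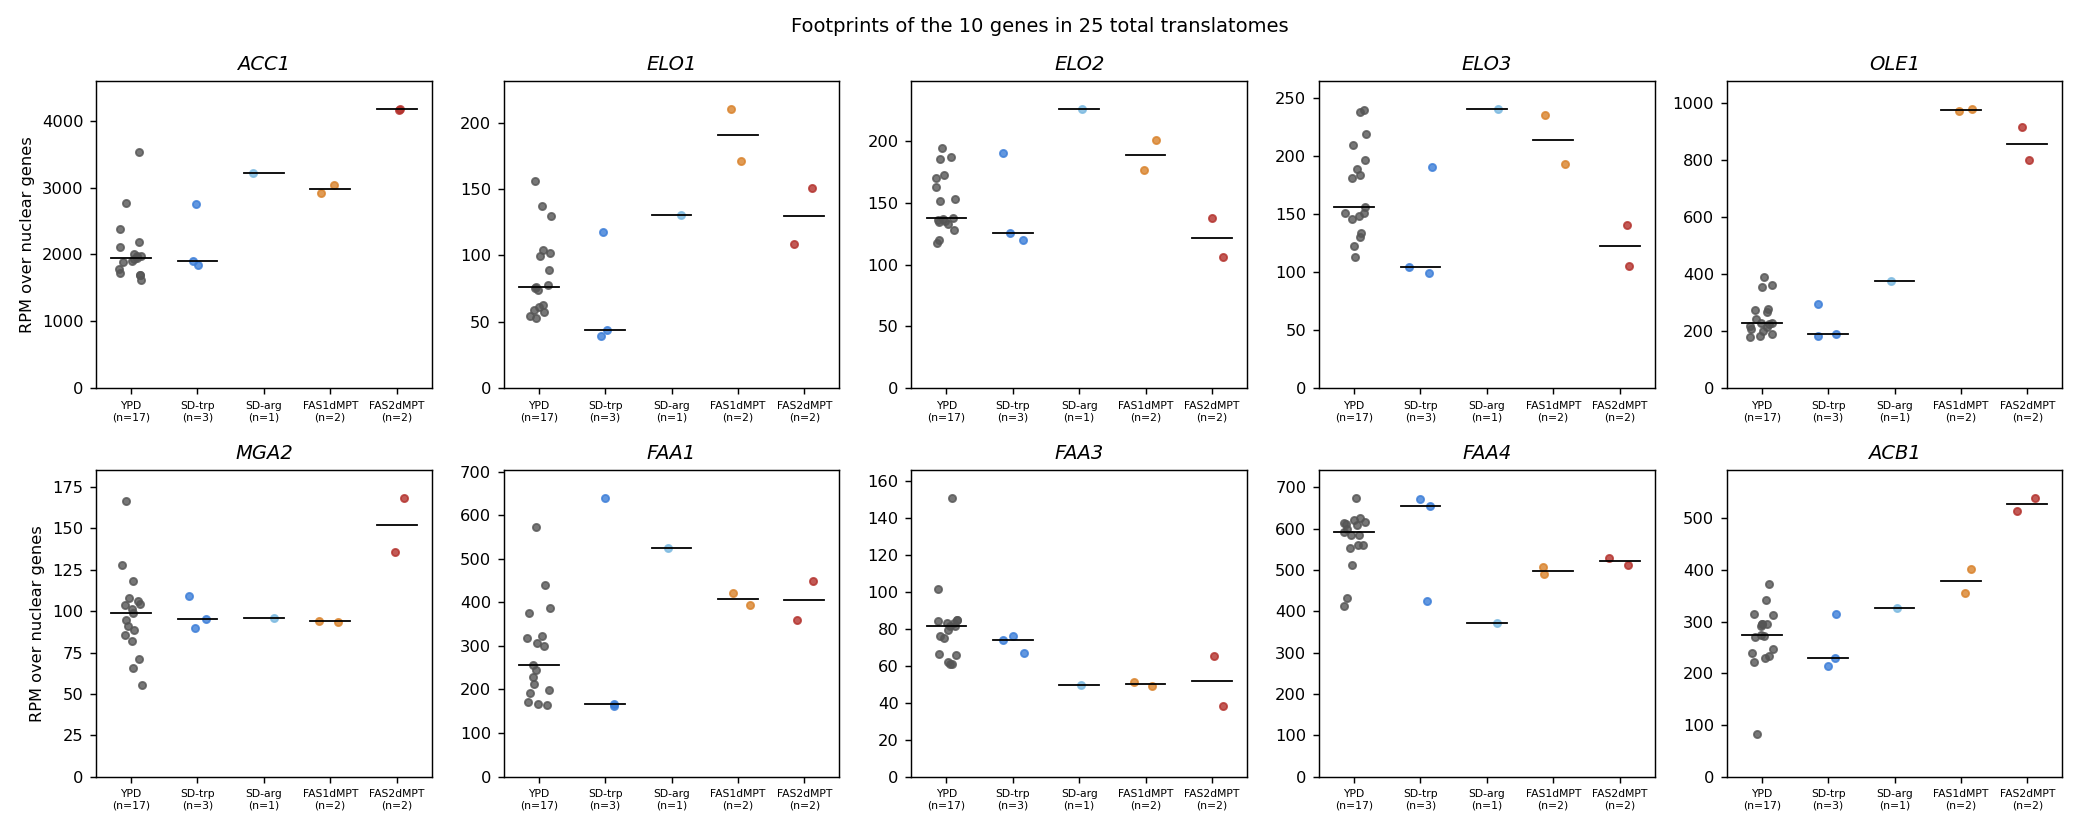
RPM over nuclear genes of the 10 genes in 25 totals, 1 panel a gene with its own axis from 0, 1 point a library and the line at the median. FAS1dMPT and FAS2dMPT stand for FAS1dMPT-GFP and FAS1-GFP FAS2dMPT, both with added fatty acids. The 4 OLE1 points of the deletion strains, from 799 to 980 RPM, lie above all others.

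MGA2, whose product activates OLE1 transcription, was not called in either strain. It stood at 94.2 and 93.4 RPM in FAS1dMPT-GFP and at 136 and 169 RPM in FAS1-GFP FAS2dMPT, within or just above the YPD range of 55.4 to 166 RPM. Its log2 differences were -0.33 (95% interval -0.76 to 0.10) and 0.36 (-0.07 to 0.79). A list of 6 further genes held the other membrane-bound activator, SPT23, and RSP5, UBX2, CDC48, UFD1 and NPL4 for release of the activators. Of these 0 were called in either strain. Their median differences were 0.02 (from -0.11 to 0.63) in FAS1dMPT-GFP and 0.21 (from 0.01 to 0.48) in FAS1-GFP FAS2dMPT. The 2 genes of the electron supply to the desaturase, CYB5 and CBR1, were not called either. Their differences had opposite signs in FAS1dMPT-GFP, with -0.70 the lower and 0.25 the higher. In FAS1-GFP FAS2dMPT the lower was -0.73 and the higher -0.34.

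ACC1 was higher in the FAS2 deletion strain by an amount below the minimum for a call. It stood at 4182 and 4165 RPM there, at 2925 and 3048 RPM in FAS1dMPT-GFP and at 1624 to 3531 RPM in YPD. The FAS2 deletion totals lay above all YPD totals, and the FAS1 deletion totals lay inside the YPD range because of GUS1-GFP total 1 alone, since the next YPD total had 2779 RPM. The log2 differences from YPD were 0.74 ± 0.15 in FAS1-GFP FAS2dMPT (limma, adjusted p = 0.00109) and 0.25 ± 0.15 in FAS1dMPT-GFP (limma, adjusted p = 0.292). Adjusted p alone, without a minimum difference, was met by 22.7% of all features in the first comparison and 15.3% in the second. The mitochondrial paralog HFA1 was not called in either strain.

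The log2 differences of the 3 elongases from YPD were unequal, and the genes were not tested against each other. ELO2 and ELO3 make the very long chains of sphingolipids. ELO2 stood at 106 and 138 RPM in FAS1-GFP FAS2dMPT against 118 to 194 RPM in YPD, and ELO3 at 105 and 140 RPM against 113 to 240 RPM. Their values overlapped the lower end of YPD, with log2 differences of -0.60 ± 0.15 (limma, adjusted p = 0.00687) and -0.75 ± 0.20 (limma, adjusted p = 0.00913), both below the minimum for a call.

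In FAS1dMPT-GFP the log2 differences of ELO2 and ELO3 were 0.03 and 0.04. ELO1 stood at 210 and 171 RPM there, above the YPD range of 52.8 to 156 RPM, with a difference of 0.90 ± 0.31 that missed the threshold (limma, adjusted p = 0.0534). In FAS1-GFP FAS2dMPT ELO1 stood at 108 and 150 RPM, inside the YPD range. The other enzymes of the elongation cycle, IFA38, PHS1 and TSC13, were 0 of 3 called in both strains, with median differences of 0.41 and -0.21.

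FAA3, an acyl-CoA synthetase with a preference for long and very long chains, was lower in both strains by nearly the minimum for a call. It stood at 51.3 and 49.1 RPM in FAS1dMPT-GFP and at 38.3 and 65.2 RPM in FAS1-GFP FAS2dMPT, against 60.8 to 151 RPM in YPD. Only the FAS2 deletion total labelled 2 lay inside the YPD range. The log2 differences were -0.95 ± 0.19 in both strains (limma, adjusted p = 0.00157 and 0.000942). With 1 library left out at a time, the difference ranged from -1.01 to -0.90 in FAS1dMPT-GFP and from -1.17 to -0.72 in FAS1-GFP FAS2dMPT. The value of -1.01 came without FAS1dMPT-GFP total 1, and that of -1.17 without FAS1-GFP FAS2dMPT total 2. A fit without a deletion total left 1 total in that strain, which is assumed to vary like the other groups.

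FAA1 and FAA4 were not called. FAA1 stood at 395 and 421 RPM in FAS1dMPT-GFP and 360 and 450 RPM in FAS1-GFP FAS2dMPT, inside its wide YPD range, with log2 differences of 0.29 and 0.28 that turned to -0.26 and -0.27 with the FAS1-GFP totals alone as reference. FAA4 stood at 491 and 507 RPM and at 529 and 513 RPM, also inside its YPD range. ACB1 stood at 356 and 401 RPM in FAS1dMPT-GFP and at 514 and 540 RPM in FAS1-GFP FAS2dMPT against 82.8 to 372 RPM in YPD. The FAS2 deletion totals lay above all YPD totals for ACB1, with a difference of 0.72 ± 0.34 (limma, adjusted p = 0.133).

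**Figure D3:**
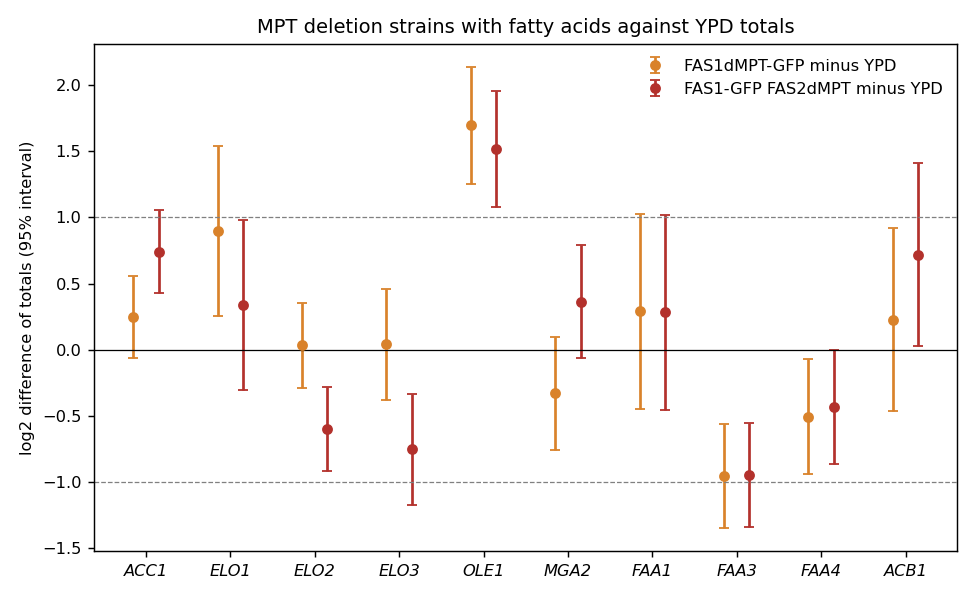
Log2 difference of scaled totals from the 17 YPD totals for each gene, with its 95% interval from the limma fit, in FAS1dMPT-GFP and FAS1-GFP FAS2dMPT (2 totals each). Dashed lines mark the minimum of 1 for a call. OLE1 alone lies beyond it, at 1.70 and 1.52, and FAA3 lies at -0.95 in both.

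Among the related genes outside the 10 that passed the filter, FAA2 rose most. FAA2, the peroxisomal acyl-CoA synthetase for medium-chain fatty acids, stood at 28.8 and 31.5 RPM in FAS1dMPT-GFP and 23.2 and 36.8 RPM in FAS1-GFP FAS2dMPT, against 1.89 to 9.24 RPM in YPD. Its log2 differences were 2.31 and 2.28 (limma, adjusted p = 0.000138 and 9.76e-05). FAT1, HFA1, ACS1, ACS2 and BPL1 complete that list of 6, of which 5 could be tested and 1 was called in each strain, beside 6.21% and 8.12% of all features. FOX2, an enzyme of peroxisomal beta-oxidation, also rose in both strains, by 1.72 and 1.93 (limma, adjusted p = 0.00156 and 0.000275), from 1.38 to 9.82 RPM in YPD to 16.4 to 22.3 RPM. Of its list of 5 genes for growth on fatty acids 2 could be tested in totals. The filter was a mean of 5 RPM over all 25 totals, the deletion totals included. In YPD the medians of FAA2 and FOX2 were 3.74 and 4.03 RPM, below that value. Their high values in the deletion strains thus helped both genes pass the filter, and their p-values are descriptions only.

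The acyltransferases DGA1 and ARE2, which store acyl-CoA in triacylglycerol and steryl esters, rose in FAS1dMPT-GFP by 1.41 and 1.13 (limma, adjusted p = 0.00155 and 0.00463), 2 of 6 in their list beside 6.21% of all features. In FAS1-GFP FAS2dMPT 0 of the 6 were called. TSC10, an enzyme of sphingoid base synthesis, fell by 1.09 on the log2 scale in FAS1-GFP FAS2dMPT (limma, adjusted p = 0.000552), the only call among 8 genes of sphingolipid synthesis, a share near the 8.12% of all features. In FAS1dMPT-GFP 0 of the 8 were called.

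Between the deletion strains, which both had added fatty acids, 0 of the 10 genes were called, as against 0.0399% of all features (2 of 5010, with FAS2 at a log2 difference of -2.82), and 258 features had an unadjusted p below 0.05. The log2 difference FAS1-GFP FAS2dMPT minus FAS1dMPT-GFP was -0.18 for OLE1 (95% interval -0.77 to 0.41) and 0.49 for ACC1 (0.08 to 0.91). ELO3 gave -0.80 (95% interval -1.36 to -0.23; limma, adjusted p = 0.786) and ELO2 -0.63 (-1.05 to -0.20; limma, adjusted p = 0.736). ELO1 gave -0.56 (-1.42 to 0.30) and MGA2 0.69 (0.12 to 1.27). With 2 libraries a strain, none of the 10 differences passed the threshold.

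In SD-trp none of the 10 genes was called. Of all 5010 features 0% were called between the 3 SD-trp and the 17 YPD totals (limma), and 408 had an unadjusted p below 0.05. The lowest differences were those of ELO1, at -0.42 (95% interval -0.96 to 0.12), and ELO3, at -0.36 (-0.72 to -0.01; limma, adjusted p = 0.605). OLE1 gave -0.11 (-0.48 to 0.26).

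The 3 SD-trp totals were not alike. FAA1 stood at 162 and 168 RPM in TRP2-GFP and at 640 RPM in TRP3-GFP, the highest total of all. ELO1 stood at 43.7 and 39.4 RPM in TRP2-GFP, below every YPD total, and at 118 RPM in TRP3-GFP. FAA4 ran the other way, at 672 and 655 RPM in TRP2-GFP and 425 RPM in TRP3-GFP. The TRP2-GFP totals had the alpha pattern of mating-type genes and the TRP3-GFP total the a pattern, and whether this bears on the difference was not tested.

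The CPA1-GFP total in SD-arg resembled TRP3-GFP in FAA1 (524 RPM) and FAA4 (371 RPM, below every YPD total). It had ACC1 at 3214 RPM, ELO2 at 226 RPM and ELO3 at 240 RPM, and as a single library it has no replicate check.

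Over the 25 totals, the genes whose log2 level followed each of the 10 most closely were found among 4376 genes with a median of at least 10 RPM. For OLE1 they were YPS1 (Pearson r = 0.92) and MIA40 (r = 0.91), and for ACC1 PLB3 (r = 0.92) and HAL5 (r = 0.91). ELO1 ran with ROT2 (r = 0.95) and COS6 (r = 0.92), ELO2 with YNR021W (r = 0.95) and OST1 (r = 0.93), and ELO3 with TPN1 (r = 0.92) and EMP70 (r = 0.91). MGA2 ran with NTA1 (r = 0.87) and YPP1 (r = 0.85). FAA1 ran with the hexose transporter genes HXT7 (r = 0.96) and HXT6 (r = 0.95), which are near-identical copies, so that their separate values are uncertain. FAA3 ran with NAM7 (r = 0.86) and PDR12 (r = 0.83), FAA4 with UTP5 (r = 0.88) and PWP2 (r = 0.87), and ACB1 with MED11 (r = 0.88) and SPO12 (r = 0.87). All these values are over the same 25 libraries, which include the deletion totals where OLE1 was highest. Values of r without the deletion totals were not computed. The genes named are the closest of 4376, so a high r was selected for.

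In the purified fraction none of the 10 genes was called over the mean of the 8 full-length strains with 2 pairs, where 5.9% of 5137 features were called (5.45% higher and 0.448% lower in the IP). Without scaling that split turned, to 105 features higher and 404 lower. By adjusted p alone ACC1, MGA2 and FAA3 were higher and ACB1, ELO2 and OLE1 lower, each also by sign under the other scalings tried. That is 3 of 10 genes higher and 3 lower, where 61.8% of all features met the same rule (30.4% higher and 31.4% lower). The differences were 0.50 ± 0.14 for ACC1, 0.57 ± 0.14 for MGA2 and 0.43 ± 0.09 for FAA3 (limma, adjusted p = 0.00319, 0.00114 and 0.00033). ACB1 gave -0.85 ± 0.19, ELO2 -0.54 ± 0.10 and OLE1 -0.35 ± 0.13 (limma, adjusted p = 0.000625, 9.91e-05 and 0.0267). OLE1 no longer met this rule with equal totals (limma, adjusted p = 0.504) or without any 1 of 5 libraries (0.0503 to 0.0649), namely FAS2-GFP IP 1 and total 2, PFK1-GFP total 1 and IP 2, and PFK2-GFP IP 2. Without scaling between libraries ACC1, MGA2 and FAA3 did not meet it (limma, adjusted p = 0.363, 0.139 and 0.481).

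These signs were shared by most pairs whichever subunit was tagged. After scaling, ACC1, MGA2 and FAA3 were each higher in the IP in 24 of 25 pairs, ACB1 in 3, ELO2 in 2 and OLE1 in 4. FAA1, FAA4, ELO1 and ELO3 were higher in 16, 15, 7 and 8 pairs. In RPM without this scaling the counts were 23 for ACC1, 24 for MGA2 and for FAA3, 3 for ACB1, 5 for ELO2 and 10 for OLE1. FAA1, FAA4, ELO1 and ELO3 were then higher in 18, 23, 17 and 14 pairs, so that ELO1 and ELO3 changed side with the scaling.

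**Figure D4:**
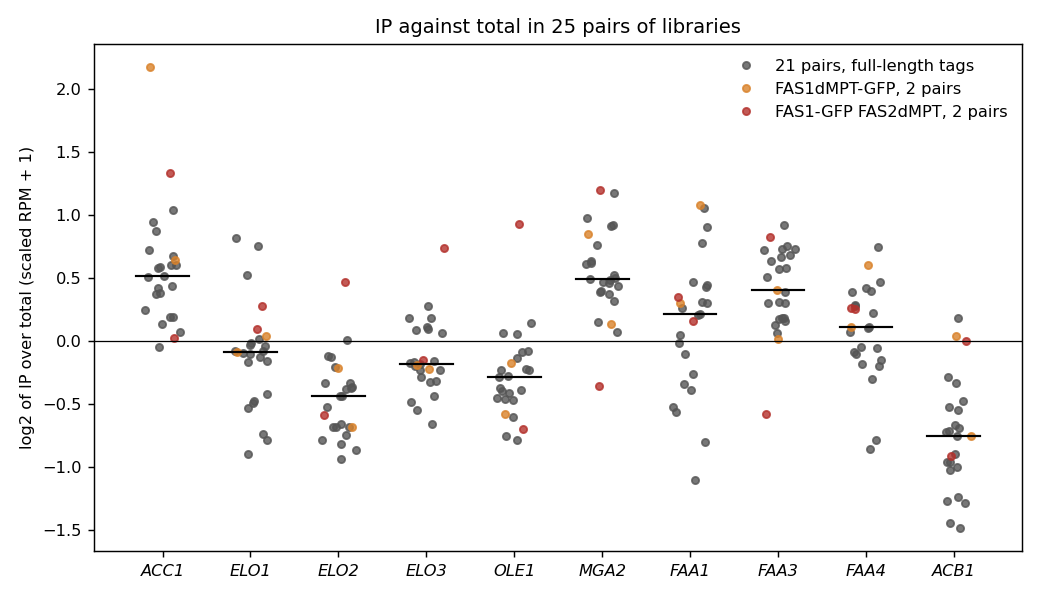
Log2 ratio of IP over total (scaled RPM + 1) in each of 25 pairs of libraries, by gene, with the 2 deletion strains in colour and the line at the median of all pairs. ACC1, MGA2 and FAA3 lie above 0 in 24 of 25 pairs and ACB1 in 3, and the highest ACC1 point is FAS1dMPT-GFP pair 2 at 2.17.

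The difference moved with the length of the reading frame across all features (Pearson r = 0.50 with log2 length over 5137 features, which are not independent replicates). The 194 features of 4000 nt or more had a median of 0.74 over the same strains, and ACC1 ranked 142 of 194 among them. The 524 features under 500 nt had a median of -0.57, and ACB1 ranked 69 of 524 from the lowest. What part length has in the values of the 10 genes was not tested.

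**Figure D5:**
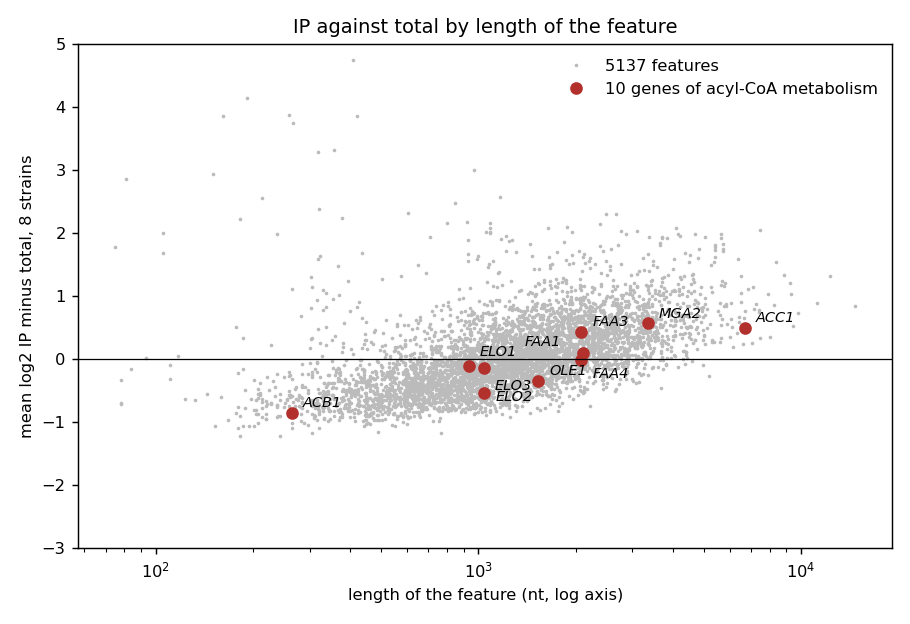
Mean log2 IP minus total over 8 full-length strains against feature length in nt (log axis) for 5137 features, 1 of them beyond the vertical axis, with the 10 genes in red. ACC1 at 0.50 lies below the median of 0.74 of the 194 longest features, and ACB1 at -0.85 lies among the short ones, whose median is -0.57.

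With fatty acid synthase itself tagged, total and IP were not paired by replicate number in the main test. In it 0 of 10 genes were called in FAS1-GFP, beside 0.0195% of all features, of which 1119 had an unadjusted p below 0.05 (limma). In FAS2-GFP 0 of the 10 were called, beside 4.67% of features. With the replicate block 555 features were called in FAS1-GFP and 945 in FAS2-GFP. Of the 10 genes only ACB1, in FAS2-GFP, was then called. ACC1, whose product feeds the synthase, stood at 1927 RPM in total and 2731 RPM in IP in FAS1-GFP pair 1, and at 2779 and 4053 RPM in pair 2. In FAS2-GFP it stood at 2389 and 3341 RPM in pair 1 and at 2114 and 3724 RPM in pair 2. The total and IP of FAS1-GFP pair 2 had opposite mating-type patterns, and whether they come from 1 culture was not tested. ACC1 was higher in the IP in all 4 pairs, with differences of 0.71 ± 0.39 in FAS1-GFP (limma, adjusted p = 0.272) and 0.31 ± 0.39 in FAS2-GFP (limma, adjusted p = 0.575). Under no further scaling both turned negative, at -0.39 and -0.25. ACC1 ranked 138 and 167 among the 194 longest features in these strains.

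In the deletion strains ACC1 gave the highest IP values of the series, each in 1 of 2 libraries. FAS1dMPT-GFP had 4735 and 13999 RPM in its IPs, and FAS1-GFP FAS2dMPT 13142 and 3725 RPM, against 1975 to 4963 RPM in the 17 YPD IPs. The other library of each strain lay inside the YPD range. The scaled log2 ratios of ACC1 were 0.65 and 2.17 in FAS1dMPT-GFP, where ACC1 ranked 17 and 5 of 194 among the longest features. In FAS1-GFP FAS2dMPT they were 1.33 and 0.03, with ranks 60 and 25. Whether the total and IP of the pair labelled 2 in this strain were exchanged was not tested, and with exchanged labels its ratio would have the opposite sign.

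Over both pairs the ACC1 difference was 1.37 ± 0.39 in FAS1dMPT-GFP (limma, adjusted p = 0.641) and 0.67 ± 0.39 in FAS1-GFP FAS2dMPT (limma, adjusted p = 0.985). In both strains 0% of features were called (limma), and 259 and 87 had an unadjusted p below 0.05. Against FAS1-GFP, the change in the IP-over-total difference of ACC1 was 0.66 (95% interval -0.47 to 1.78) and -0.05 (-1.17 to 1.08). FAA1 in FAS1dMPT-GFP IP 2 stood at 908 RPM against 421 RPM in its total, and at 505 against 395 RPM in pair 1.

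In TRP2-GFP the differences of FAA1 and FAA4 had opposite signs. FAA1 stood at 162 and 168 RPM in its totals and 412 and 409 RPM in its IPs, and FAA4 at 672 and 655 RPM in totals and 530 and 513 RPM in IPs. The differences were 0.84 ± 0.37 for FAA1 (limma, adjusted p = 0.169) and -0.82 ± 0.19 for FAA4 (limma, adjusted p = 0.0183, below the minimum for a call), and 0 of the 10 genes were called where 4.2% of features were. The IPs of this strain also held 514 and 518 RPM over the a-specific marker genes against 8.41 and 15.7 RPM in its totals. The part of these markers' source in the FAA1 and FAA4 values was not tested.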

How the data were processed

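The deposited tables list 6605 features with a value in RPM each, per the file headers. Cutadapt 1.8.3 is the tool that the submitters' processing notes name. Not given in the sources used here are the aligner, the counting, the genome build and what was done with reads that match several genes. RPM values over 6577 nuclear features were set to the same sum in each library (28 mitochondrial features left out). Symbols came from the RefSeq table of assembly R64, which matched 5900 nuclear features. Between 13.3% and 75.6% of the non-zero values of a library were whole multiples (within 0.01) of its most frequent value. Exact reads were therefore not recovered, and no count test was used for the comparisons. Libraries were scaled by an unweighted trimmed mean of log ratios (shares of 0.3 of ratios and 0.05 of means trimmed), filtered at a mean of 5 RPM, set to log2(RPM + 1), which understates changes of low genes, and tested with limma 3.58.1 (R 4.3.3, trend) with Benjamini-Hochberg adjustment, 25 totals in 1 fit and 40 libraries of 10 strains in the other. The script was checked on simulated data. The labels do not say that replicates are separate cultures, and the p-values cover the spread among libraries only, which may be technical. The spread of replicate pairs was set against counting noise on approximate reads, implied by the depth read from the most frequent value. The chi-square per degree of freedom ran from 2.27 (ARC1-GFP IP) to 168 (FAS1-GFP FAS2dMPT IP), above counting noise in all pairs as far as these reads hold. The members and lists were chosen with earlier results of these data known. The rule named the 10 genes, the 2 genes most correlated with each, and called list genes, otherwise a list's extremes. Alternatives covered scaling, pseudocount, filter, minimum difference, weights, blocks, reference, mating-type and layout covariates, and left-out libraries. The depth read from the most frequent value implied at least about 105 OLE1 reads in every YPD IP. For other genes the lowest implied number was smaller, at 39 for ELO1, 56 for FAA3 and 64 for MGA2.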

Additional observations from a re-analysis of the deposited data

Results flagged for a closer look

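Within YPD, 10 strains gave 1 mean RPM a strain for each gene, and 8 strains 1 IP-minus-total difference, and in 2 of these 20 sets the outermost strain stood far from the next. Chance marks about 1 set in 20 this way. ELO1 in the single SUI2-GFP total was 156 RPM, and the next strain had 103 RPM. FAA3 in GUS1-GFP was 116 RPM as a mean of 2 totals at 151 and 81.3 RPM, and the next strain had 88.1 RPM.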

How the results depend on the processing

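OLE1 kept its call in both deletion strains under every alternative run, from 1.67 to 2.14 in FAS1dMPT-GFP and from 1.47 to 1.82 in FAS1-GFP FAS2dMPT. The number of the 10 genes called moved from 1 to 2 in FAS1dMPT-GFP with equal totals, no further scaling, library weights (ELO1 added in each) or no minimum difference, and ranged from 1 to 2 when 1 library was left out. In FAS1-GFP FAS2dMPT it moved from 1 to 3 with equal totals, 5 with no minimum difference and 2 without pair 2, and ranged from 1 to 2 when 1 library was left out. Over the 8 strains' IPs it moved from 0 to 1 with no further scaling (ACB1) and 6 with no minimum difference. In FAS1-GFP it moved from 0 to 6 with no further scaling, where the median feature fell by 1.08, and in FAS2-GFP to 1 with equal totals, 2 with no further scaling and 1 with library weights. The replicate differences of total and IP correlated above 0.1 in 9 of 10 strains (up to 0.83 in GUS1-GFP) and at 0.00 in ARC1-GFP. Pairing was taken as shown where all strains passed 0.1, so the fit without a block was kept, and the pairing of total and IP remains possible. The replicate block gave 1 call in FAS2-GFP (ACB1) and left the other counts unchanged.

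The number of all features called, which is the background of these counts, moved more. With strain as a random block (consensus correlation within strain 0.282) it was 234 in FAS1dMPT-GFP and 350 in FAS1-GFP FAS2dMPT. From 311 in FAS1dMPT-GFP it went to 639 with no further scaling, 486 with equal totals, 766 with no minimum difference, 40 with FAS1-GFP totals as reference, and 108 and 68 without its total 1 and total 2. From 407 in FAS1-GFP FAS2dMPT it went to 1138 with no minimum difference, 109 with that reference and 224 without its total 1. From 303 in the mean IP difference it went to 502 with equal totals, 509 with no further scaling and 176 with a pseudocount of 5. The single call in FAS1-GFP became 2549 with no further scaling, 149 with equal totals, 304 with library weights, 555 with the replicate block and 57 without its total 1, and the 240 in FAS2-GFP became 668, 393, 757 and 945 under the first 4 of these, and 0 without its IP 1, without its total 2 or from its own spread. Between the deletion strains library weights gave 69 calls, and in SD-trp 48.

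Signs turned for genes near 0. In FAS1dMPT-GFP these were MGA2 at 0.11 with no further scaling, ELO2 at -0.0076 without totals under 80% of reads over genes, FAA1 at -0.26 and, in FAS1-GFP FAS2dMPT, at -0.27 with FAS1-GFP totals as reference. With single libraries left out, ELO2 ranged from -0.083 to 0.15 and ELO3 from -0.12 to 0.21 in FAS1dMPT-GFP, and FAA4 from -0.055 to 0.020 in the mean IP difference. In that mean, equal totals gave 0.12 for ELO1, 0.10 for ELO3 and 0.22 for FAA4, and no further scaling gave -0.24 for FAA1. ACC1 gave -0.39 in FAS1-GFP and -0.25 in FAS2-GFP with no further scaling. The layout covariate, the low-share and the GUS1-GFP and PFK1-GFP pair 1 alternatives were chosen after seeing the data. The cause of these moves was not tested.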
